A study of Rattus norvegicus with 13 samples.

Results

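rno-miR-802-5p is a mature microRNA (miRNA), a short RNA that guides silencing of matching messenger RNAs, and it is cut from the 5′ side of the miR-802 hairpin. It was selected on measured values, because its level was lower in both irradiated groups of rat kidneys than in the controls. It is 1 of 460 mature rat miRNAs in the count table and 1 of 419 that passed the filter on low counts. Its levels in both comparisons with control are therefore given as a description, with no test.

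Small RNA was sequenced from the kidneys of 13 female rats of the WAG/RijCmcr Wistar strain, aged 11 to 12 weeks, with a weight near 155 g. The control group held 4 rats that received 0 Gy. The irradiated group held 4 rats exposed to 13 Gy (320 kVp X-rays, 1.75 Gy per min) while a hind limb was kept out of the beam. The group given irradiation plus lisinopril held 5 rats that received the same exposure and then lisinopril, an inhibitor of angiotensin-converting enzyme, in the drinking water from day 7 at about 24 mg per m2 per day. Kidneys of every group were collected at day 35. The labels list supportive care with saline (40 ml per kg per day, days 3 to 7) and the antibiotic enrofloxacin (10 mg per kg per day to day 14), and do not say whether the controls received it. No group received lisinopril without irradiation, so that an effect of the drug in unirradiated kidney cannot be told apart from its effect after irradiation. The RNA came from whole kidney tissue, in which fewer cells of a type and less RNA per cell cannot be told apart.

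miR-802 is known mainly from liver and pancreas. It has been studied in the liver of obese mice for its part in glucose metabolism. In the kidney it has been described in the collecting duct, where it takes part in the handling of potassium through the channel ROMK.

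The sequence of the hairpin is shown because both arms of miR-802 were counted and are compared here. RefSeq's GRCr8 assembly places the gene Mir802 at chr11:46112362-46112457 on the plus strand, inside the span of the long noncoding RNA gene LOC134480977. The nearest named protein-coding genes are Runx1 before it and Setd4 after it. The authors' own alignment used the older rn4 build, whose coordinates were not used here. Capitals mark bases that are paired in the minimum free energy fold.
Mir802 hairpin: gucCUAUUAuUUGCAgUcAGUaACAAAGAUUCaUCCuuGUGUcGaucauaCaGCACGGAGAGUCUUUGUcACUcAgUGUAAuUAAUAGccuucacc
The fold of these 96 bases held 33 base pairs with a free energy of -31.3 kcal per mol, and a loop at bases 45 to 50 separated both arms. The 5p arm lies before that loop and the 3p arm after it.

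Counts over rat miRNAs ranged from 4885082 to 11095939 in 12 libraries and came to 1194175 in control library 2, which stands apart. Levels are given as CPM, the count of a miRNA relative to its library's size and multiplied up to a common scale. Library sizes were scaled by TMM, a factor from the bulk of the miRNAs that ranged from 0.787 to 1.19. A count of 3, taken as the floor of a library, was worth 3.19 CPM in control library 2 and 0.289 to 0.561 CPM in the others. The irradiation labels were checked with miR-34a-5p, a target of p53, which stood at 50.0 to 54.4 CPM in the controls, 256 to 348 CPM in the irradiated kidneys and 236 to 356 CPM with lisinopril. All 12 kidney tubule markers were detected in every library, and the first of them, miR-192-5p, stood at 34750 CPM or more. The liver markers miR-122-5p and miR-122-3p had no row among the 460 mature rat miRNAs used, so that no level of them is given.

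miR-802-5p was a low-abundance miRNA in these kidneys. The 4 controls held 95, 14, 93 and 80 counts, which gave 12.2, 14.9, 8.97 and 9.44 CPM. The 4 irradiated kidneys held 37, 25, 30 and 34 counts, or 6.92, 3.10, 4.19 and 5.73 CPM. The 5 kidneys given lisinopril held 24, 39, 45, 54 and 36 counts, or 3.92, 4.08, 4.65, 5.24 and 4.17 CPM. Every irradiated kidney, with or without lisinopril, lay below every control. Such a lower level without overlap was found for 4.53% of all 419 tested miRNAs after irradiation and for 7.4% with lisinopril. The closest pair was irradiated rat 1 at 6.92 CPM and control rat 3 at 8.97 CPM. Their exact 95% Poisson intervals, 4.87 to 9.53 and 7.24 to 11.0 CPM, overlapped, and these intervals cover counting error only.

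**Figure D1:**
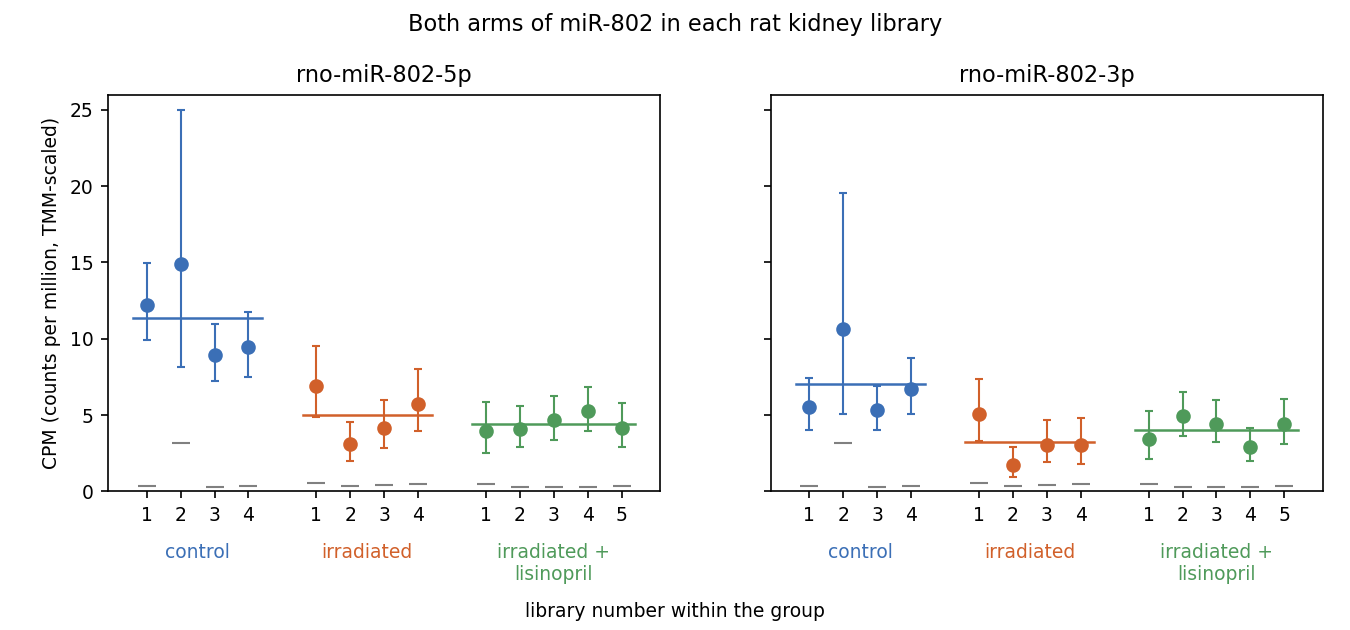
Level of miR-802-5p and miR-802-3p in CPM (vertical axis) in each of the 13 libraries, by group; points are libraries, bars are exact 95% Poisson intervals, horizontal lines are group means and grey ticks are the level of 3 counts. All 9 irradiated kidneys lie below the lowest control for miR-802-5p (8.97 CPM), and the widest interval, 8.14 to 25.0 CPM, belongs to the shallow control library 2. Among all 419 tested miRNAs, 4.53% were lower without overlap after irradiation and 7.4% with lisinopril.

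The group means of miR-802-5p were 11.4 ± 2.75 CPM in controls (SD, n = 4), 4.98 ± 1.68 CPM after irradiation (SD, n = 4) and 4.41 ± 0.536 CPM after irradiation with lisinopril (SD, n = 5). The irradiated means came to 43.8% and 38.8% of the control mean. The order of the levels was therefore control, irradiated, irradiated plus lisinopril, and the ranges of the neighbours at the low end overlapped. Their means differed by less than the SD of the irradiated kidneys and by slightly more than that of the kidneys given lisinopril. Without control library 2 the control mean was 10.2 ± 1.77 CPM (SD, n = 3). The coefficient of variation was 24.1% among controls, 33.7% after irradiation and 12.1% with lisinopril. The counting error of a library averaged 14.6%, 18.0% and 16.3% over the libraries of each group, and was 26.7% in control library 2. On the TMM scale the spread between rats exceeded that average among controls and irradiated kidneys. The spread was below that average in the 5 kidneys given lisinopril, too few to measure it closely. For the controls this depended on the scaling: on library totals alone the coefficient of variation was 12.7% among controls, 30.2% after irradiation and 9.44% with lisinopril. The levels remained without overlap when library totals alone were used for scaling: the lowest control stood at 8.82 CPM, the highest irradiated kidney at 7.57 CPM and the highest with lisinopril at 4.87 CPM.

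In the edgeR quasi-likelihood fit to all 13 libraries, miR-802-5p was lower after irradiation by a log2 fold change of -1.14 (SE 0.245), or 2.21-fold. With lisinopril it was lower than in controls by -1.30 on the log2 scale (SE 0.227), or 2.46-fold. With all 9 irradiated kidneys against the 4 controls the value was -1.22 (SE 0.20), or 2.33-fold. Both comparisons use the same 4 controls and are not independent of each other. Without the shallow control library 2 the values were -1.05 and -1.20. Leaving out irradiated rat 2 gave -0.96 and leaving out irradiated rat 1 gave -1.31 for irradiation alone, which were the extremes over the 8 libraries left out in turn.

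The number of miRNAs that passed the threshold in the comparison of irradiated kidneys with controls depended on the libraries and the tool. With all 13 libraries edgeR called 7 of 419 tested miRNAs at an adjusted p under 0.05, a share of 1.67%, and 5 of them were lower, a share of 1.19%. DESeq2 called 11 higher and 13 lower, the edgeR fit without irradiated library 4 called 35 higher and 25 lower, and the fits without control library 4 or with only these groups each called 1 higher and 0 lower. Without irradiated library 1, 2 or 3 the lower calls were 1, 2 and 1. Leaving out control library 3 gave 5 higher and 6 lower. The 5 include miR-802-5p, and nothing is read from its being there, because this comparison chose it. The other 4 were miR-411-5p at -0.91, miR-541-5p at -0.76, and miR-183-5p and miR-3553, both at -0.57 in log2 fold change. Counts of miR-183-5p and miR-3553 ran in near proportion over the 13 libraries, for example 3709 and 3040 in control library 1 and 1703 and 1400 in irradiated library 1. The 5 may therefore hold fewer separate signals, which was not tested. By fold change miR-802-5p was the 6th lowest of 419, which is likewise a description. The miRNAs below it were miR-770-5p at -4.30, miR-3473 at -2.53, miR-140-5p at -1.21, miR-376b-5p at -1.19 and miR-19a-3p at -1.18, and none of these passed the threshold. All of them except miR-376b-5p owed that place to control library 2, for example miR-770-5p with 244 CPM there and 2.70 to 4.64 CPM in the other controls. Without that library their log2 fold changes were -0.29 (miR-770-5p), -0.18 (miR-3473), -0.10 (miR-140-5p) and -0.44 (miR-19a-3p), and miR-376b-5p stood at -1.15. miR-802-5p was again the 6th lowest without it, of 427 tested, now after other miRNAs such as miR-376c-3p at -1.08 and miR-380-3p at -1.07. A total of 19 miRNAs, or 4.53%, were lower with no overlap between the groups.

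The comparison of kidneys given lisinopril with controls gave 26 calls, or 6.21% of 419, and 23 of them were lower, or 5.49%. All 5 miRNAs called lower after irradiation alone were among these 23, which share the same controls. The 23 also hold miR-3578 and miR-369-5p, whose counts were nearly equal in each library, for example 40 and 39 in control library 1. Whether the 23 are all separate signals was not tested. The number of lower calls fell to 11 without control library 4 and to 13 without lisinopril library 3 or 4, and to 14 without lisinopril library 5. The 23 again include miR-802-5p, from which nothing is read. By fold change it was the 8th lowest of 419, and the 8th lowest of 427 without control library 2. A total of 31 miRNAs, or 7.4%, were lower with no overlap between the groups.

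**Figure D2:**
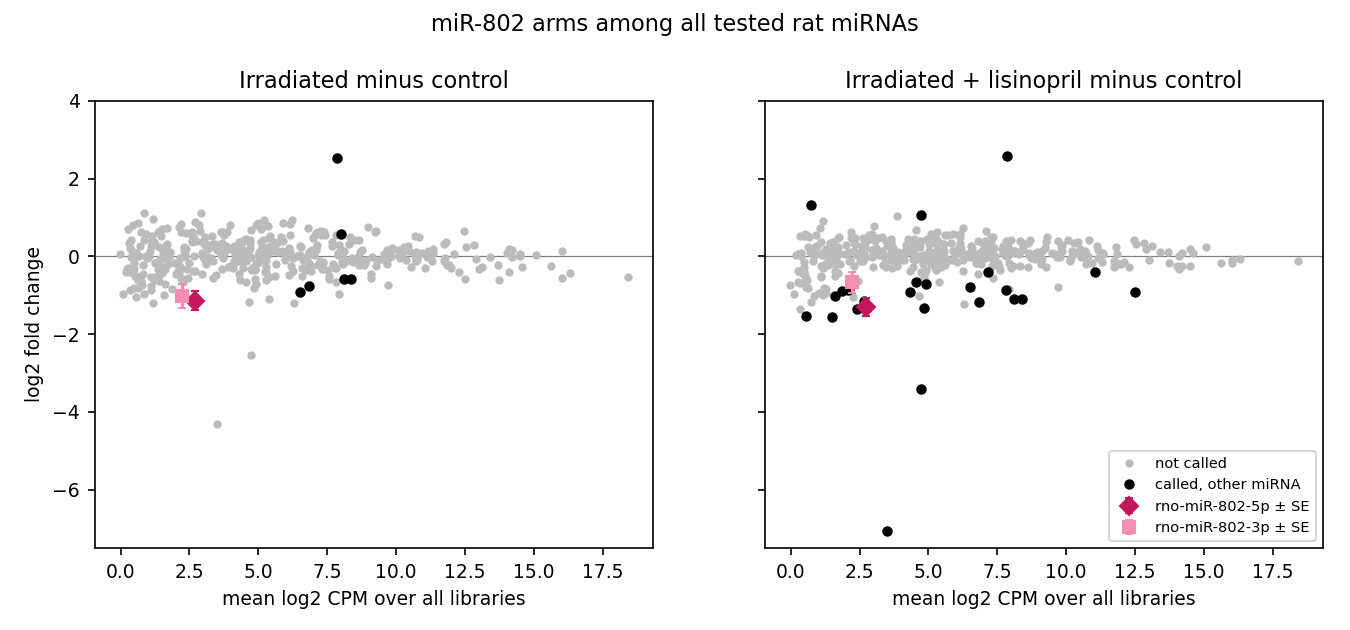
Log2 fold change (vertical axis) against mean log2 CPM (horizontal axis) of the 419 tested rat miRNAs, for irradiated kidneys and for irradiated kidneys with lisinopril, each against control; black points are other miRNAs that passed an edgeR adjusted p under 0.05, grey points did not, and the diamond and the square are miR-802-5p and miR-802-3p with their SE. miR-802-5p lies at -1.14 and -1.30, in the lower part of the range of levels, while the median fold change over all tested miRNAs was 0.02 and 0.05.

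The fold changes of miR-802-5p can be set beside miRNAs of a like level. Its mean over the 13 libraries was 6.73 CPM, which ranked 301st of 419. The miRNA just above it, miR-34b-3p of the p53-responsive miR-34 family, had 6.96 CPM and log2 fold changes of 0.65 (SE 0.179) and 0.45 (SE 0.170). The miRNA just below it, miR-196c-3p, had 6.71 CPM and log2 fold changes of 0.81 (SE 0.252) and 0.55 (SE 0.240). It had only 2 counts in control library 2, and its levels overlapped between controls (2.13 to 5.41 CPM) and lisinopril (4.91 to 9.20 CPM). Both neighbours were higher in the irradiated groups by fold change, whereas miR-802-5p was lower, the direction it was chosen for. These ranks compare CPM that are not corrected for the length or the cloning efficiency of each miRNA. Among all 460 rat miRNAs, miR-802-5p ranked 253rd to 285th in the controls, 305th to 341st after irradiation and 307th to 327th with lisinopril. These ranks restate the counts by which it was chosen. How many other miRNAs moved in rank without overlap was not counted.

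Whether lisinopril altered the level of miR-802-5p after irradiation is the comparison that its choice did not use directly. The choice still bears on it, because a lower level was required in both irradiated groups. A miRNA brought back to the control level by lisinopril would not have been chosen. The tests below therefore lean away from such a difference. The kidneys given lisinopril, 3.92 to 5.24 CPM, lay inside the range of the irradiated kidneys, 3.10 to 6.92 CPM. The log2 fold change was -0.15 (SE 0.278; 95% interval -0.74 to 0.44; edgeR adjusted p = 0.806). An exact two-sided permutation test of log2 CPM gave a difference of -0.11 and p = 0.619, also 0.619 after Benjamini-Hochberg adjustment over the 5 permutation tests computed. No difference was detectable, and the interval covers a change of either sign. edgeR called no miRNA in this comparison, a share of 0%, with 63 of 419 at an unadjusted p under 0.05, whereas DESeq2 called 4 higher and 5 lower.

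miR-802-3p comes from the opposite arm of the same hairpin, and its levels are a second readout of that precursor in the same libraries, not an independent experiment. The controls held 43, 10, 55 and 57 counts, or 5.54, 10.6, 5.30 and 6.72 CPM. The irradiated kidneys held 27, 14, 22 and 18 counts, or 5.05, 1.74, 3.07 and 3.03 CPM. The kidneys given lisinopril held 21, 47, 43, 30 and 38 counts, or 3.43, 4.91, 4.45, 2.91 and 4.40 CPM. The groups did not overlap with the controls on this scale, but irradiated rat 1 lay only just below control rat 3. Of all 419 tested miRNAs, 4.53% were likewise lower without overlap after irradiation and 7.4% with lisinopril. On library totals alone the miR-802-3p levels did overlap: the lowest control stood at 5.08 CPM, and 3 of 4 irradiated kidneys and 4 of 5 with lisinopril lay below it.

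The 3p arm did not pass the threshold over all miRNAs in either comparison with control. Its means were 7.05 ± 2.47 CPM in controls (SD, n = 4), 3.22 ± 1.37 CPM after irradiation (SD, n = 4) and 4.02 ± 0.821 CPM with lisinopril (SD, n = 5), so that the irradiated means were 45.7% and 57.0% of the control mean. Without control library 2, at 10.6 CPM the highest, the control mean was 5.85 ± 0.761 CPM (SD, n = 3) and the log2 fold changes were -0.89 and -0.54. The log2 fold change after irradiation was -1.02 (SE 0.304; edgeR adjusted p = 0.0822), and DESeq2 gave an adjusted p of 0.0274. With lisinopril against control it was -0.67 (SE 0.277; edgeR adjusted p = 0.169). Exact two-sided permutation tests gave 0.0286 and 0.0159, each the smallest p those group sizes allow, and both became 0.0714 after adjustment over the 5 tests. The 3p arm was examined because the 5p arm of its hairpin was chosen as lower in the same libraries. Its p-values against control are therefore not neutral and lean towards a lower level. Between the irradiated groups the value was 0.35 (SE 0.284; 95% interval -0.26 to 0.95; edgeR adjusted p = 0.534), with an exact permutation p = 0.349 that became 0.437.

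The balance of both arms was measured as the share of 5p counts in the sum of 5p and 3p counts of a library. The share was 68.8%, 58.3%, 62.8% and 58.4% in the controls. It was 57.8%, 64.1%, 57.7% and 65.4% in the irradiated kidneys. It was 53.3%, 45.3%, 51.1%, 64.3% and 48.6% in the kidneys given lisinopril. The group means were 62.1 ± 4.96% (SD, n = 4), 61.2 ± 4.07% (SD, n = 4) and 52.6 ± 7.20% (SD, n = 5), and 4 of 5 kidneys with lisinopril lay below the lowest irradiated kidney. The difference between the irradiated groups was -8.70 percentage points, which an exact two-sided permutation test placed at p = 0.0794, or 0.132 after adjustment over the 5 tests. The share holds the 5p counts by which miR-802-5p was chosen, so that this test is not free of that choice. These shares rest on 24 to 148 counts a library. Their 95% Wilson intervals were wide, from 35.3% to 55.8% in the kidney with the lowest share. Adding both arms gave 18.4 ± 4.94 CPM in controls (SD, n = 4; 16.1 ± 1.75 CPM without control library 2), 8.20 ± 2.98 CPM after irradiation (SD, n = 4) and 8.43 ± 0.708 CPM with lisinopril (SD, n = 5).

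**Figure D3:**
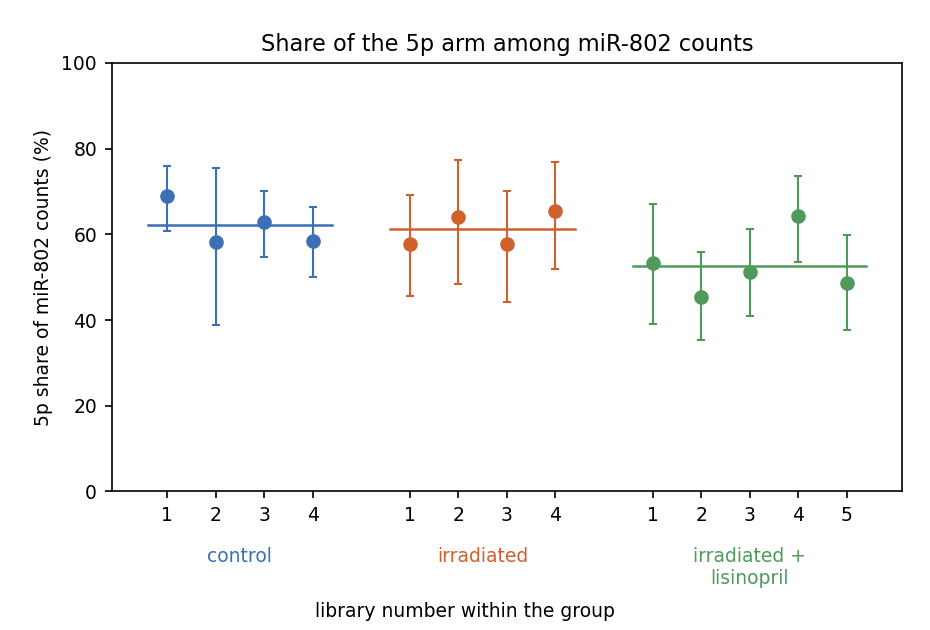
Share of miR-802 counts that came from the 5p arm, in percent (vertical axis), in each library by group; points are libraries, bars are 95% Wilson intervals and horizontal lines are group means. The means are 62.1%, 61.2% and 52.6%, and the interval of each kidney with lisinopril overlaps that of each irradiated kidney.

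The miRNAs whose log2 CPM followed miR-802-5p most closely over the 13 libraries were miR-379-5p (Pearson r = 0.889, Spearman rho = 0.885), miR-499-5p (0.888 and 0.874), miR-411-5p (0.879 and 0.885), miR-96-5p (0.869 and 0.797) and miR-708-5p (0.864 and 0.797), out of 418 others. These correlations are descriptions, since the libraries share the contrast of control and irradiated kidneys, the scaling and the depth. Their mature sequences are shown so that they can be compared with each other and with the hairpin. They are RefSeq entries of GRCr8, and capitals mark the seed, bases 2 to 8, which pairs with target messages.
rno-miR-379-5p: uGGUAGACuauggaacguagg
rno-miR-499-5p: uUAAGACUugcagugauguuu
rno-miR-411-5p: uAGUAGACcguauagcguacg
rno-miR-96-5p: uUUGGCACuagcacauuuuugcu
rno-miR-708-5p: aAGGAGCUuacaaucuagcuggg
No whole seed is shared between them, but the seeds of miR-379-5p and miR-411-5p differ only at base 2. None of the 5 seeds occurs as the same bases in the miR-802 hairpin, which says nothing of pairing with it. miR-379 and miR-411 are neighbours in the imprinted Dlk1-Dio3 cluster, miR-499 lies in an intron of a muscle myosin gene, and miR-96 belongs to the miR-183 cluster of sensory tissues. miR-802-3p was the 10th closest (0.814 and 0.747). At the other end were miR-652-3p, the lowest of all with r = -0.900, and miR-34a-5p with r = -0.859.

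The levels of the closest miRNAs differed widely while their profiles were alike. miR-379-5p stood at 6.02 ± 3.11 CPM in controls, 2.87 ± 0.439 CPM after irradiation and 2.77 ± 0.320 CPM with lisinopril (SD, n = 4, 4 and 5). miR-499-5p stood at 315 ± 129, 198 ± 39.9 and 173 ± 15.4 CPM in the same order and group sizes. Without control library 2 the control means were 4.48 ± 0.564 CPM for miR-379-5p and 251 ± 20.8 CPM for miR-499-5p (SD, n = 3). In each of the 5 closest miRNAs control library 2 was the highest of the 13 libraries, as it was for miR-802-5p. In the correlations without that library miR-379-5p remained the closest with r = 0.912 and miR-499-5p the second with r = 0.884. miR-411-5p then came 5th with 0.825, miR-96-5p 10th with 0.801, miR-708-5p 12th with 0.794 and miR-802-3p 29th with 0.715.

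**Figure D4:**
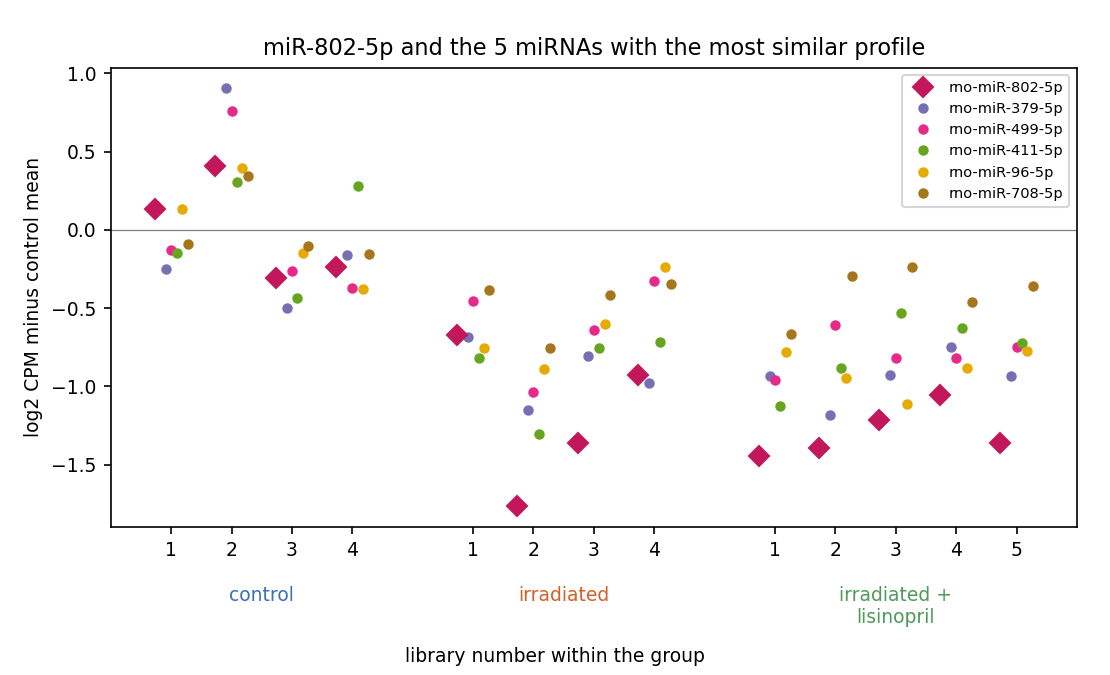
Log2 CPM of miR-802-5p and of the miRNAs closest to it, each as the difference from its own mean of the control libraries (vertical axis), over the 13 libraries (horizontal axis, by group). All 9 irradiated libraries lie below the control mean for each of the 6 miRNAs, and control library 2 is the highest point of each.

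The muscle marker miR-499-5p was called lower in 1 comparison, and the other measured muscle markers did not pass the threshold. Of 5 muscle miRNAs, 3 were measured, none at a count of 0, and their summed level was 261 to 540 CPM in controls, 189 to 267 CPM after irradiation and 185 to 226 CPM with lisinopril. The value of 540 CPM came from control library 2, and the other controls reached 302 CPM. Most of that sum was miR-499-5p, the 1 of 32 tested marker miRNAs that edgeR called in any comparison (log2 fold change -0.85, adjusted p = 0.0256, lisinopril against control). Of all 419 tested miRNAs, edgeR called 6.21% in that comparison. The muscle-defining miR-1-3p was near the floor, at 1.18 to 3.19 CPM in controls, 0.279 to 1.31 CPM after irradiation and 0.654 to 1.16 CPM with lisinopril. miR-133a-3p, another muscle miRNA, stood at 27.9 to 38.5, 27.8 to 42.6 and 22.6 to 37.8 CPM, with broad overlap of the groups. The part of muscle RNA in the level of miR-802-5p was not tested.

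Other cell types showed no such called change. The 12 kidney tubule markers summed to 435566 to 746644 CPM in controls, 354163 to 488108 CPM after irradiation and 450757 to 581721 CPM with lisinopril. Most of each sum was miR-10a-5p alone, so that the sums say little of the other tubule markers. The value of 746644 CPM came from the shallow control library 2, where miR-10a-5p stood at 562055 CPM. It stood at 288354 to 380525 CPM in the other controls, 251361 to 320318 CPM after irradiation and 318520 to 406322 CPM with lisinopril. The 4 leukocyte markers summed to 648 to 976, 799 to 1232 and 642 to 1401 CPM. The largest part of each sum was miR-150-5p, at 378 to 734, 441 to 1100 and 401 to 1202 CPM. miR-223-3p was lower after irradiation, at 40.3 to 54.9, 26.7 to 36.7 and 31.6 to 41.4 CPM in the same order. Of all 419 tested miRNAs, 4.53% were lower without overlap after irradiation. The levels of miR-142-3p and miR-142-5p overlapped between the groups. The leukocyte sums therefore say little of each marker. The 4 erythroid markers, which tell of blood left in the tissue, summed to 918 to 2104, 790 to 4229 and 674 to 3491 CPM, and only miR-144-5p among them was at 0 in a library. Most of each erythroid sum was miR-486. No marker of these lists passed the edgeR threshold in any of the 3 comparisons, beside 1.67%, 6.21% and 0% of all 419. With so few markers, an absence of calls says little of these cell types. The part of tubule or blood RNA in the level of miR-802-5p was not tested.

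In humans the gene of miR-802 lies on chromosome 21 with those of miR-99a, let-7c, miR-125b and miR-155, and in the rat assembly all of these have a gene on chromosome 11. Of the 8 other tested miRNAs of this list, 0 were called higher and 0 lower by edgeR in each of the 3 comparisons. Over all 419 the shares called were 1.67%, 6.21% and 0%. A negative fold change was found for 6, 3 and 3 of the 8, beside 48.2%, 43.0% and 53.5% of all 419. The median log2 fold change of the 8 was -0.01 after irradiation, 0.05 with lisinopril against control and 0.07 between the irradiated groups, against 0.02, 0.05 and -0.02 over all 419. These 8 include miR-802-3p, described above. Of the other 7, miR-155-5p, a miRNA of activated immune cells, had the lowest fold changes in both comparisons with control: 38.4 ± 8.38, 25.7 ± 5.96 and 25.2 ± 4.83 CPM (SD, n = 4, 4 and 5), with log2 fold changes of -0.57 (edgeR adjusted p = 0.135) and -0.60 (adjusted p = 0.0971). miR-99a-5p stood at 468 ± 94.0, 400 ± 10.7 and 485 ± 60.0 CPM in the same order, and miR-99a-3p at means of 31.3, 31.2 and 33.2 CPM. let-7c-5p stood at means of 6258, 7607 and 7960 CPM and miR-125b-5p at 1179, 1169 and 1144 CPM, but both can also come from copies on other chromosomes. The arms that come from the chromosome 11 copies alone, let-7c-1-3p at 3.13, 3.08 and 3.24 CPM and miR-125b-2-3p at 182, 219 and 208 CPM, likewise passed no threshold.

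miR-802 is studied for glucose and lipid metabolism, and a list of 19 miRNAs linked to these in liver or pancreas was examined beside it. Of these, 16 were tested and edgeR called 0 of them in each comparison, beside 1.67%, 6.21% and 0% of all 419. Negative fold changes numbered 8, 10 and 7 of the 16, beside 48.2%, 43.0% and 53.5% of all 419. The medians were -0.02, -0.11 and 0.07, beside 0.02, 0.05 and -0.02 over all 419. miR-122-5p, the most liver-specific of the list, had no row among the mature rat miRNAs used. miR-192-5p, abundant in kidney tubules as well as liver, stood at 76362 ± 12528, 51704 ± 13741 and 71256 ± 17188 CPM (SD, n = 4, 4 and 5), with a log2 fold change of -0.56 after irradiation (edgeR adjusted p = 0.134). The next most abundant, miR-26a-5p, changed by -0.25 (edgeR adjusted p = 0.178) and miR-143-3p, a miRNA of smooth muscle, likewise did not pass the threshold. miR-375-3p, a miRNA of pancreatic islets, stood at 1739 ± 180, 1871 ± 305 and 1507 ± 202 CPM. Its log2 fold change was 0.10 after irradiation and -0.21 with lisinopril against control.

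The fold changes of miR-802-5p against control kept their sign under every setting run, which is the sign it was chosen for. Across 11 other scalings, filters and tools, the value ranged from -1.17 to -0.91 after irradiation and from -1.32 to -1.23 with lisinopril. The lowest size after irradiation, -0.91, came from scaling by library totals alone, which moved the median of all miRNAs by 0.24 in that comparison.

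**Figure D5:**
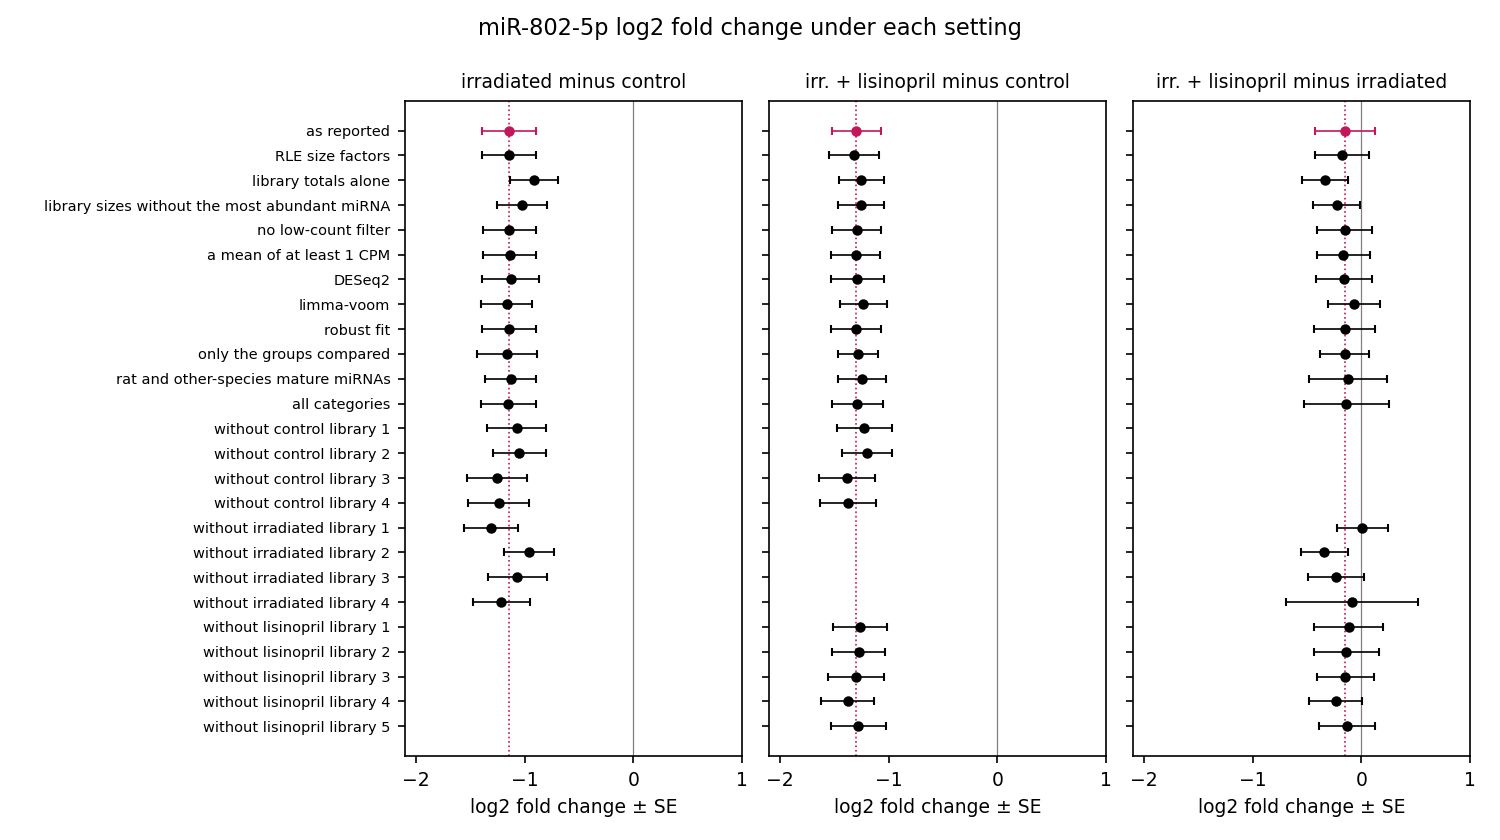
Log2 fold change of miR-802-5p (horizontal axis) in each comparison as reported, under each other setting and with each library left out; points are estimates and bars are SE. All estimates against control lie below 0, between -1.38 and -0.91, while those between the irradiated groups lie between -0.34 and 0.01.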

How the data were processed

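Kidney total RNA (1 µg a library) was made into TruSeq small RNA libraries, per the labels' protocols. Per the submitters' processing notes, Trim Galore 0.2.5, Bowtie 1.1.1 and the rn4 build were used. The sources used here do not give how reads that map to several miRNAs were counted. The authors deposited whole-number read counts for 1121 features in 6 categories; the 460 mature rat miRNAs were used. Groups came from the labels, which describe separate rats and give no batch, litter or pairing, so that p-values measure the spread between these rats.

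In R 4.3.3 with edgeR 4.0.16, filterByExpr kept 419 miRNAs. All 13 TMM-scaled libraries entered one quasi-likelihood fit by group (common biological coefficient of variation 0.247). Benjamini-Hochberg adjustment covered the 419 miRNAs, with a threshold of 0.05. Log2 CPM used a prior count of 2. limma 3.58.1 (voom), DESeq2 1.42.0, other scalings and filters, and leaving out each library were alternatives; levels and ranks without control library 2 were added after the data were seen, as were profile correlations without it and overlaps on library totals. Permutation tests ran in SciPy 1.17.1 and the hairpin fold in ViennaRNA 2.7.2. The scripts were tested on simulated data. No library was a duplicate of another of its group: chi-square over degrees of freedom was 102 to 970.

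miR-802-5p and the lists were chosen with earlier results of these data known. Named were both arms of miR-802, the miRNAs closest to miR-802-5p by Pearson r (5 over all libraries, 5 over deviations from group means, and the lowest of each), its neighbours in mean CPM, all of the chromosome 21 list, and of the metabolism list the called, the 3 most abundant and miR-122-5p and miR-375-3p. The reference table held the hairpin of miR-802 and no mature sequence of it, so that no seed is given.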

Additional observations from a re-analysis of the deposited data

Results flagged for a closer look

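In 36 quantities and 3 groups each, or 108 groups of 4 or 5 libraries, 6 held a library far from the others by Dixon's gap test, which chance alone does in about 1 in 20 groups. None concerned an arm of miR-802. Control library 2, the shallow one, was the high one for miR-379-5p at 10.6 CPM, for miR-499-5p at 506 CPM and for miR-708-5p at 30.8 CPM, which are 3 of the 5 miRNAs closest in profile to miR-802-5p. Control library 3 was low for miR-99a-3p at 25.9 CPM, control library 4 was high for miR-125b-2-3p at 258 CPM, and irradiated library 4 stood apart for miR-33-5p at 33.2 CPM.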

How the results depend on the processing

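miR-802-5p kept a negative fold change against control under all settings; leaving out 1 library gave -1.31 to -0.96 after irradiation, -1.38 to -1.20 with lisinopril and -1.32 to -1.12 for all irradiated kidneys. Between the irradiated groups the other settings gave -0.34 to -0.07 (adjusted p 0.364 to 0.956), and leaving out 1 library gave -0.34 to 0.01, or 0.00899 without irradiated library 1, where the sign turned (adjusted p 0.668 to 0.987). The number of miRNAs called depended strongly on the setting. After irradiation DESeq2 called 11 higher and 13 lower, library totals alone 2 and 0, the fit to only those groups 1 and 0, and the fit without irradiated library 4 35 and 25. With lisinopril against control, higher calls ranged from 2 to 17 and lower calls from 11 to 37. Between the irradiated groups, leaving out irradiated library 4 gave 20 higher and 27 lower. The causes were not tested. miR-802-3p after irradiation passed under 1 of 11 other settings, DESeq2 (adjusted p 0.0274; up to 0.188 in the others), and leaving out 1 library gave 0.0552 to 0.265. The call of miR-499-5p with lisinopril was lost when all categories entered the fit and without any 1 of lisinopril libraries 1, 3, 4 and 5. Depth is one limit: at 14 to 95 counts a library, counting error alone gives a coefficient of variation of 10.3% to 26.7% for miR-802-5p. No paired analysis was possible because the labels give no replicate numbers shared between groups.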

Other observations

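Within groups, that is after each group's mean log2 CPM was subtracted, the miRNAs that varied most like miR-802-5p over the 13 libraries were miR-1-3p (r = 0.805), a muscle miRNA near the floor, miR-293-5p (0.800), miR-26b-5p (0.787), miR-322-5p (0.781) and miR-136-3p (0.768), out of 418. miR-802-3p came 25th with 0.677, and miR-664-3p was the lowest with -0.842. Without control library 2 the order changed: miR-190a-3p (0.867), miR-322-5p (0.863), miR-450a-5p (0.831), miR-26b-5p (0.830) and miR-196a-3p (0.820) led, miR-1-3p came 11th with 0.750, miR-802-3p 72nd with 0.582, and miR-664-3p stood at -0.824. Only miR-322-5p and miR-26b-5p were in both leading groups of 5. These are descriptions over libraries that share depth and scaling.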
